A study of Mus musculus with 2 samples.

Results

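The Mir148 and Mir152 family consists of 3 mouse microRNA genes, Mir148a, Mir148b and Mir152. They were chosen by their gene symbols and not by any measured value, although earlier results of these data were known. All 3 were found among the 2202 microRNA genes of the count tables. Their reads were counted in the gastrocnemius, the large muscle of the calf, of female B6CASTF1/J mice aged 36 days, a cross of the laboratory strain C57BL/6 with the wild-derived strain CAST/EiJ. The labels give 1 group with biological replicates 1 and 2, named as different females, 1 library each from total RNA with inserts under 30 nucleotides, and no treatment, mutant or second tissue. Both records carry 1 donor identifier, so the spread between the libraries may be technical. Whole muscle holds fibres, vessels, nerve and blood, and a difference in RNA per cell and a difference in the number of cells of a type cannot be told apart.

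A microRNA is cut from a hairpin transcript, and a short strand from 1 of its arms guides Argonaute proteins to messenger RNAs. Pairing rests mainly on the seed, bases 2 to 8 of the mature strand, so members of a seed family can bind many of the same messages. The strands from the 3′ side of the 3 hairpins are known to repress the maintenance DNA methyltransferase Dnmt1. In cultured mouse myoblasts miR-148a has been described as promoting differentiation through Rock1, and in liver it is known for lowering the low-density lipoprotein receptor. No messenger RNA was measured in these libraries.

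The mature strands, from RefSeq with the build GRCm38.p6, are shown because they decide whether the 3 genes can be told apart by reads and what they have in common. Capitals mark bases 2 to 8, and each strand is written 5′ to 3′.
miR-148a-3p: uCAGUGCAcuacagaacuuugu
miR-152-3p: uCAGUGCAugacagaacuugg
miR-148b-3p: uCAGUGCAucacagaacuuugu
miR-148a-5p: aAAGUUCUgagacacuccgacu
miR-152-5p: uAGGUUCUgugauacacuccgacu
miR-148b-5p: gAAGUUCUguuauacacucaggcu

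The 3p strands had the same bases 2 to 8, and of the 1738 mature sequences at hand only these 3 did. Positions were counted from 1 at the 5′ end. From miR-148a-3p to miR-148b-3p the changes were C9U and U10C, with 20 of 22 bases identical. From miR-148a-3p to miR-152-3p they were C9U, U10G and U20G, with 18 of 21 compared bases identical. From miR-148b-3p to miR-152-3p they were C10G and U20G. The 5p strands split differently. The seed of miR-148a-5p was shared with miR-148b-5p and with no other mature sequence at hand, whereas miR-152-5p differed from both by A3G within these bases and shared its seed with none.

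The whole hairpins, with both mature arms in capitals, give the context from which these strands are cut. Mir148a lies at chr6:51269812-51269910 on the minus strand, Mir152 at chr11:96850393-96850465 on the plus strand and Mir148b at chr15:103285125-103285221 on the plus strand, all in mm10 coordinates.
Mir148a: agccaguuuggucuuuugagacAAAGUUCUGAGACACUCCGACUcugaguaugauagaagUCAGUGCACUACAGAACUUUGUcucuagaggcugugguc
Mir152: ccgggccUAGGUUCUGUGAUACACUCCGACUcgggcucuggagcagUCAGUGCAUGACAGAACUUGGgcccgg
Mir148b: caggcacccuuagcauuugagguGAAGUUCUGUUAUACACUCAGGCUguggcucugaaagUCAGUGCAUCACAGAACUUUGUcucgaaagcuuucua

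The Mir152 hairpin was the shortest, with 73 bases, against 99 for Mir148a and 97 for Mir148b. Its GC content was 61.6%, against 45.5% for Mir148a and 45.4% for Mir148b. The minimum free energy computed with RNAfold was -43.5 kcal/mol for Mir152, -41.0 kcal/mol for Mir148a and -30.9 kcal/mol for Mir148b. No mature arm of the 3 was found in any other of the 1005 RefSeq hairpins. The longest stretch shared within the family was 15 bases, between Mir148a and Mir148b, and the longest shared with a microRNA outside it was 13 bases, between Mir152 and Mir3473f. These lengths matter because multiply matched reads belong to no gene in these tables, and a full-length mature strand of this family matched only its own hairpin among those searched.

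In the GENCODE M21 annotation, Mir152 and Mir148b lie in the same intron of paralogous host genes. Mir152 is in intron 1 of Copz2 and Mir148b in intron 1 of Copz1, each on the strand of its host, in all 3 and all 4 annotated transcripts that span them. Copz1 and Copz2 encode the zeta subunits of the COPI coat, which forms vesicles at the Golgi. The intron around Mir152 is 676 bases long and the hairpin starts 517 bases from the start of Copz2-201. The intron around Mir148b is 16159 bases long and the hairpin starts 12215 bases from the start of Copz1-201. Mir148a has no annotated host. Its nearest gene is the long non-coding Gm32479, 13.6 kb away on the same strand, and its nearest protein-coding gene is Nfe2l3, 163 kb away. None of the 3 lies in a microRNA cluster, as the nearest other microRNA gene is 65.2 kb from Mir148b, 213 kb from Mir152 and 352 kb from Mir148a.

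**Figure D1:**
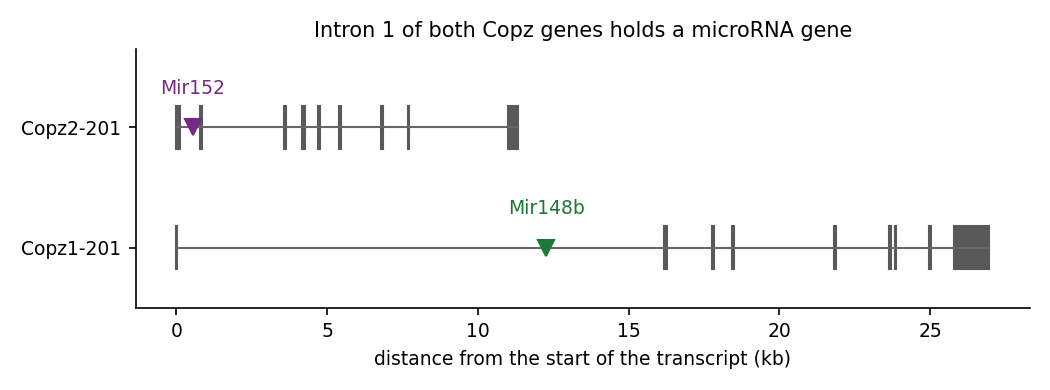
Gene models of Copz2-201 and Copz1-201 against the distance from the transcript start in kb, with exons as boxes and the microRNA genes as triangles. Both hairpins lie in intron 1, that of Mir152 517 bases and that of Mir148b 12215 bases from the start.

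All 3 genes were detected, which means at least 10 reads in each library, as were 273 genes in all. Replicate 1 held 1593787 reads assigned to microRNA genes and replicate 2 held 2078101. Of gene-assigned, multiply matched, unmapped and outside-gene reads together, those that match several places were 75.4% and 77.6% and unmapped reads 6.37% and 5.98%. Skeletal muscle markers were present, with 7 of 9 detected and none without a read, at 2.21% of gene-assigned reads in replicate 1 and 6.98% in replicate 2. Most of this was Mir206, at 2.06% and 6.70%. Mir1a-1 and Mir1a-2 share a mature sequence, as do Mir133a-1 and Mir133a-2. Reads of a shared sequence match several places and are uncounted, so the muscle share leaves them out and cannot be ranked against other lists. Markers of other cells were present too. Endothelial markers held 8.86% and 11.3%, smooth muscle markers 12.0% and 6.25%, erythroid markers 3.73% and 0.898%, and leukocyte markers 0.142% and 0.209%. Most of the endothelial share was Mir126a (8.82% and 11.3%) and most of the smooth muscle share Mir143 (11.8% and 6.10%). Mir451a (3.46% and 0.836%) gave most of the erythroid share.

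Mir148a was the most abundant of the family by mean level, followed by Mir152 and Mir148b. Mir148a had 399 reads in replicate 1 and 344 in replicate 2, or 250.3 and 166 counts per 1000000 gene-assigned reads (CPM), a mean of 208 ± 60.0 CPM (SD, n = 2). The exact 95% intervals were 226 to 276 CPM in replicate 1 and 149 to 184 CPM in replicate 2, so the libraries did not overlap. Intervals here cover counting error only, since PCR copies of a molecule cannot be recognised. Mir148a ranked 124 of 273 detected genes.

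Mir152 had 229 and 333 reads, or 144 and 160.2 CPM, with a mean of 152 ± 11.7 CPM (SD, n = 2). Its intervals, 126 to 164 CPM in replicate 1 and 143 to 178 CPM in replicate 2, overlapped. Mir152 ranked 142 of 273. Mir148b, the least abundant, had 114 reads in each library, or 71.5 and 54.9 CPM, with a mean of 63.2 ± 11.8 CPM (SD, n = 2). Its intervals, 59.0 to 85.9 CPM in replicate 1 and 45.3 to 65.9 CPM in replicate 2, overlapped as well, and it ranked 183 of 273. The median detected gene had 166 CPM, so Mir148a lay above the middle of the detected range and Mir152 and Mir148b below it. Genes whose mature strand comes from several loci, such as Mirlet7a-1 and Mir24-2, are undercounted, because multiply matched reads belong to no gene. The ranks and the median thus rest on reads placed at 1 locus.

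**Figure D2:**
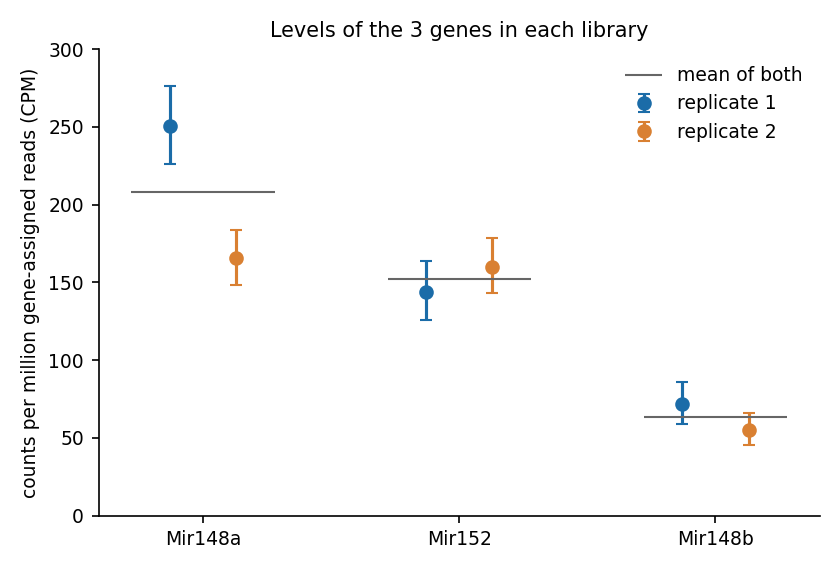
Level of each gene in CPM (vertical axis, from 0) in replicate 1 and replicate 2, with exact 95% counting intervals and the mean of both libraries as a line. Mir148a stands at 250.3 CPM in replicate 1 and 166 CPM in replicate 2, Mir152 at 144 and 160.2 CPM, and Mir148b at 71.5 and 54.9 CPM.

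No read lay on the strand opposite to any of the 3 genes, and counting without regard to strand gave the same read numbers. For the intronic Mir152 and Mir148b the reads thus had the orientation of their hosts, which is also that of the hairpins. The arms are not told apart in these tables, so the counts are of hairpin genes, and how many reads were 3p or 5p strands was not measured here. Ligation efficiency varies with sequence in small RNA libraries, which makes levels of different genes less certain than those of 1 gene across libraries.

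The order of the 3 genes within a library was tested against counting error. In replicate 1 Mir148a had 1.74 times the reads of Mir152 (exact 95% interval 1.48 to 2.06), while in replicate 2 the ratio was 1.03 (0.886 to 1.20), so in replicate 2 these neighbours did not differ beyond counting error. Mir148a exceeded Mir148b 3.50-fold in replicate 1 (2.84 to 4.35) and 3.02-fold in replicate 2 (2.43 to 3.76). Mir152 exceeded Mir148b 2.01-fold in replicate 1 (1.60 to 2.54) and 2.92-fold in replicate 2 (2.35 to 3.65). Mir148b was the lowest in both libraries, and Mir148a stood above Mir152 beyond counting error in replicate 1 alone. On the log2 scale the ratio was 0.42 ± 0.53 for Mir148a over Mir152, 1.70 ± 0.15 for Mir148a over Mir148b and 1.28 ± 0.38 for Mir152 over Mir148b (SD, n = 2).

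The makeup of the family differed between the libraries beyond counting error, and variation beyond counting was not tested for it. Mir148a gave 53.8% of the family's reads in replicate 1 (50.1 to 57.4%) and 43.5% in replicate 2 (40.0 to 47.0%). Mir152 gave 30.9% (27.6 to 34.3%) and 42.1% (38.6 to 45.6%), and Mir148b 15.4% (12.8 to 18.2%) and 14.4% (12.0 to 17.1%). The intervals of Mir148b overlapped, and those of Mir148a and of Mir152 did not. Ratios between members do not depend on how the libraries are scaled. The ratio of Mir148a to Mir152 was 1.69 times as large in replicate 1 as in replicate 2 (exact conditional 95% interval 1.34 to 2.12). That of Mir152 to Mir148b was 0.688 times as large (0.499 to 0.949). That of Mir148a to Mir148b was 1.16 times as large, with an interval of 0.852 to 1.58 that includes 1.

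**Figure D3:**
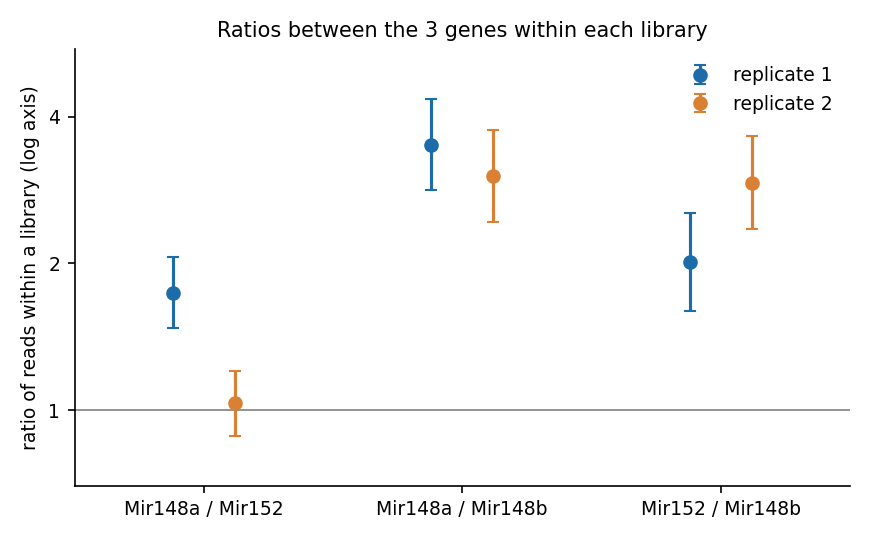
Ratio of reads between each pair of the 3 genes within a library (log axis), with exact 95% intervals, for replicate 1 and replicate 2. The ratio of Mir148a to Mir152 is 1.74 in replicate 1 and 1.03 in replicate 2, without overlap of the intervals.

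Between the libraries, Mir148a was 1.44-fold higher in replicate 1 after TMM scaling (exact 95% interval 1.25 to 1.67, log2 ratio 0.53). It passed a two-sided exact binomial test with Benjamini-Hochberg adjustment over all 273 detected genes (adjusted p = 1.59e-06). This test compares the reads of 2 libraries and does not use any estimate of variation among mice. It called 63.0% of all detected genes, and 29.7% as higher in replicate 1, so 1 call among 3 members says nothing particular about the family. Mir148b had a fold of 1.24 (0.952 to 1.63, adjusted p = 0.162 by the exact binomial test) and Mir152 a fold of 0.856 (0.720 to 1.02, adjusted p = 0.112 by the exact binomial test), and neither passed.

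Ratios of this size were common in these libraries. The median absolute log2 ratio was 0.32 over the 3 members and 0.36 over all detected genes, and 95 of the 273 genes had a larger absolute ratio than Mir148a. With the exact test of edgeR at a common dispersion, whose square root gives a coefficient of variation of 0.335 and which was estimated from these same 2 libraries, no member passed (adjusted p = 1 for each). That test called 1.47% of the detected genes. At an unadjusted p under 0.05 it gave 19 genes, none of them a member, the lowest member p being 0.454 for Mir148a. Summed over the family, 742 and 791 reads made up 0.0466% and 0.0381% of gene-assigned reads, a fold of 1.17 (1.05 to 1.29).

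**Figure D4:**
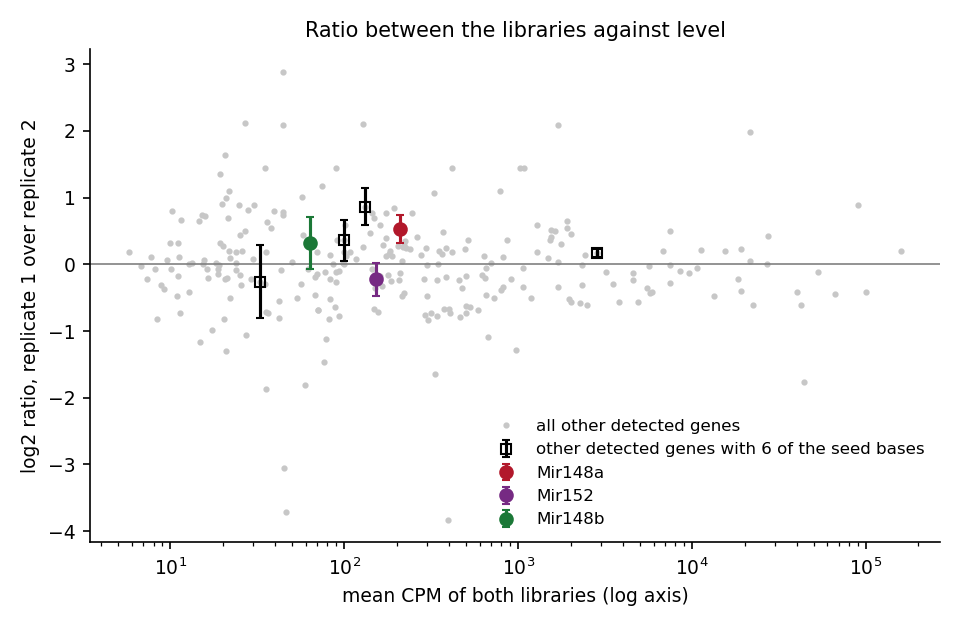
Log2 ratio of replicate 1 over replicate 2 after TMM scaling against mean CPM (log axis) for all 273 detected genes in grey, the 3 members in colour and the other detected genes with AGUGCA in the seed as open squares, with exact 95% counting intervals. Mir148a lies at 0.53, Mir148b at 0.32 and Mir152 at -0.22, all inside the cloud of other genes.

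Some marker lists were higher in replicate 1 and others lower. Both erythroid markers, Mir451a and Mir144, passed the binomial test with a summed fold of 3.97 (3.90 to 4.04). Both smooth muscle markers, Mir143 and Mir145a, passed with a summed fold of 1.84 (1.82 to 1.85). Of 7 epithelial markers 3 were detected, 2 passed as higher in replicate 1, and the summed level was 280.5 CPM in replicate 1 and 152 CPM in replicate 2. In the opposite direction, 4 of the 7 detected skeletal muscle markers passed as lower in replicate 1 and none as higher, with a summed fold of 0.302 (0.299 to 0.306). That sum was mostly Mir206, with 32871 of 35211 reads in replicate 1 and 139295 of 145090 in replicate 2. Mir499 had a fold of 0.0701, Mir1a-2 of 0.875 and Mir486, which is shared with erythroid cells, of 0.793. Mir133b (0.952), Mir133a-1 (1.36) and Mir1a-1 (1.66) did not pass. Mir208b and Mir133a-2 fell below 10 reads in replicate 1 and were not tested. Mir208b had 5 reads in replicate 1 and 889 in replicate 2, and Mir133a-2 had 8 and 12. The endothelial markers had a summed fold of 0.749 (0.744 to 0.754), with Mir126a passing as lower and Mir221 and Mir222 not passing. Of 4 leukocyte markers, Mir142 and Mir223 were higher and Mir150 and Mir155 lower in replicate 1. The liver marker Mir122 had 201 and 167 CPM and did not pass. The pancreas markers held 0.00132% and 0.00914% of reads and the gut and kidney markers 0.00458% and 0.00539%. No marker was without a read in both libraries, although Mir141 of the epithelial list, Mir216b of the pancreas list and Mir194-1 of the gut and kidney list had 0 in replicate 2. The part of these cells in the ratio of Mir148a was not tested.

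The other microRNA genes considered were those whose seed holds AGUGCA, 6 of the 7 seed bases of the family. The miR-130a, miR-130b and miR-301a strands carry it shifted by 1 position, whereas miR-350-5p has it at the same bases as the members, with a different base before it. The strands of the detected genes are shown for that comparison, with AGUGCA in capitals.
miR-130a-3p: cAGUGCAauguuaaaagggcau
miR-130b-3p: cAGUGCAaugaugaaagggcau
miR-301a-3p: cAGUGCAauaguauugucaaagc
miR-350-5p: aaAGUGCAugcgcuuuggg

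Besides the members, 9 genes had a mature strand with AGUGCA within bases 2 to 8 among the mature sequences at hand, and 4 of them were detected. Mir130a, whose product is known from endothelial cells and adipocyte precursors, had 4902 and 5411 reads, or 3076 and 2604 CPM, and ranked 37 of 273. Mir301, which gives miR-301a, had 114 and 84.7 CPM, Mir350 had 172 and 90.0 CPM, and Mir130b had 30.7 and 35.1 CPM. Mir148a and Mir152 thus stood above Mir301 and Mir130b by mean level and far below Mir130a. The other 5, Mir721, Mir130c, Mir291b, Mir6341 and Mir6389, had no read in either library, which allows up to 1.88 CPM in replicate 1 and 1.44 CPM in replicate 2 for reads placed at 1 locus. Mir301b, not found by this search but added as a member of the miR-130 family, had 1 and 2 reads. The search covered only the mature sequences at hand, so a miss does not show that a gene lacks AGUGCA.

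Of the reads of all genes found with this piece, the 3 members held 12.1% in replicate 1 (11.3 to 12.9%). In replicate 2 they held 11.9% (11.1 to 12.7%). This share was nearly the same in both libraries, although the makeup of the family differed beyond counting error. Most of the reads it was taken over were of Mir130a, 4902 of 6149 in replicate 1 and 5411 of 6638 in replicate 2. Of the 4 detected relatives, Mir350 was 1.82-fold higher in replicate 1 (1.51 to 2.21), Mir301 1.29-fold (1.04 to 1.59) and Mir130a 1.13-fold (1.08 to 1.17), all past the binomial test. Mir130b had a fold of 0.835 (0.570 to 1.22) and did not pass. The same test called 29.7% of all detected genes as higher in replicate 1. None of the 4 passed the exact test of edgeR at the common dispersion (adjusted p = 1 for each), where Mir350 had an unadjusted p of 0.224.

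**Figure D5:**
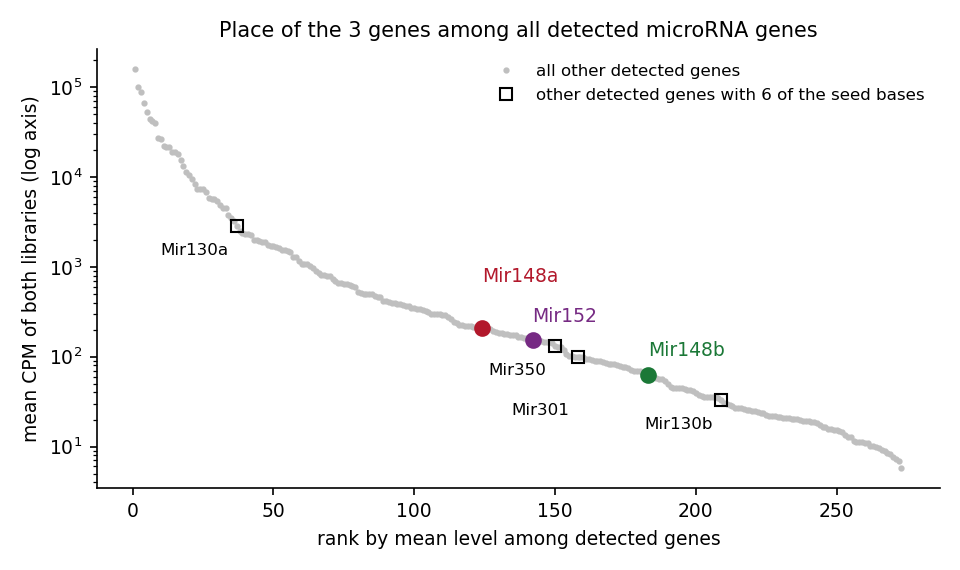
Mean CPM of both libraries (log axis) against rank for the 273 detected microRNA genes, with the 3 members in colour and the 4 other detected genes with AGUGCA in the seed as open squares. Mir148a, Mir152 and Mir148b stand at ranks 124, 142 and 183, and Mir130a at rank 37.

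Other seed families whose genes have mature sequences of their own were set beside this one for the distance between their members. The mean log2 ratio within a library from the highest to the lowest detected member was 1.70 ± 0.15 in the Mir148 and Mir152 family, from Mir148a to Mir148b. It was 3.46 ± 0.74 from Mir99a to Mir99b in the miR-99 family, 4.10 ± 0.19 from Mir221 to Mir222 and 6.43 ± 0.31 from Mir130a to Mir130b (SD, n = 2 each), leaving out Mir301b with its 1 and 2 reads. Mir27a stood below Mir27b by a log2 ratio of -2.80 ± 0.13, whereas Mir23a and Mir23b differed by 0.07 ± 0.13. The 3 members thus lay closer together than the detected members of the miR-99, miR-221, miR-27 and miR-130 families and further apart than the miR-23 pair. In the miR-103 family Mir103-2 stood below Mir107 by a log2 ratio of -5.45 ± 0.92. Mir103-1 and Mir103-2 give 1 mature sequence, whose reads match several places and are uncounted, so that value is uncertain. Makeup changed between the libraries in other families as well, with the ratio of Mir99a to Mir99b 2.06 times as large in replicate 1 as in replicate 2 (1.97 to 2.16).

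The detected genes nearest to each member in log2(CPM + 1) over both libraries were found by Euclidean distance, a description that rests on 2 libraries. Mir467e, with 403 and 338 reads, was nearest to Mir148a at a distance of 0.03, followed by Mir1843a and Mir455. Mir193a, with 220 and 318 reads, was nearest to Mir152 at 0.09, followed by Mirlet7a-2 and Mir24-2. Mir7-1, with 109 and 100 reads, was nearest to Mir148b at 0.20, followed by Mir377 and Mir412. Mirlet7a-2, Mir24-2 and Mir7-1 each share a mature strand with another gene. Reads of a shared strand match several places and are uncounted. Those genes are therefore near the members only in reads placed at 1 locus. No member was among the 3 nearest genes of another member.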

How the data were processed

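Small RNA reads of 2 libraries were used as raw counts per microRNA gene, deposited by the authors for the mm10 genome, the C57BL/6J reference, and annotation M21, per the labels and read-me files. For aligner and counter, nothing is given in the sources used here. The tables have no header. From their layout and values, the count column for the strand of the gene was used, and 4 summary rows were left out of totals and tests. In replicate 1 and replicate 2 they held 75.4% and 77.6% multiply matched, 6.37% and 5.98% unmapped and 1.49% and 1.65% outside-gene reads. These percentages are of gene-assigned, multiply matched, unmapped and outside-gene reads together, without the remaining summary row. All 2202 identifiers were matched to GENCODE M21. RefSeq hairpins were found for 968 of them.

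CPM and percentages are over gene-assigned reads. TMM factors came from edgeR 4.0.16 (R 4.3.3). With 1 group, no quasi-likelihood test between groups was possible. Each gene with at least 10 reads in both libraries was tested with a two-sided exact binomial test, Benjamini-Hochberg adjusted over these genes at 0.05. Intervals are exact 95% (Clopper-Pearson or conditional). A count of 0 allows 3 counts. Alternatives included the exact test of edgeR at a common dispersion and DESeq2 1.42.0 size factors. RNAfold 2.7.2, scipy 1.17.1, Python 3.11.15, pandas 2.3.3, matplotlib 3.10.9 and numpy 2.4.6 were used. The binomial test was checked on simulated counts with counting error alone, so that check does not cover further variation between libraries. The dispersion estimate was checked on simulated counts with a set coefficient of variation.

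The members and the lists were chosen with earlier results of these data known. Named are the members, genes that share their seed or AGUGCA in it, the miR-130 family, 5 comparison families and the 3 genes nearest to each member. Marker genes are named only beside a result.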

Additional observations from a re-analysis of the deposited data

Results flagged for a closer look

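The tables also hold signal outside the compared gene counts, above the limit of 3 counts. Multiply matched reads were 7195252 in replicate 1 and 10919725 in replicate 2, and which genes they came from was not tested. Reads at 1 place outside microRNA genes numbered 142257 in replicate 1 and 232773 in replicate 2. Mir130a had 8 reads on the opposite strand in replicate 1 and 0 in replicate 2, while Mir148a, Mir152 and Mir148b had none in either library.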

How the results depend on the processing

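Under the 7 alternatives for the ratios, Mir148a, Mir152 and Mir148b kept their direction. The exact test of edgeR reused the TMM ratios, so no direction could change there. Counting without regard to strand left the members' reads unchanged and altered only the scaling. Mir148a passed under all but the exact test of edgeR at a common dispersion (log2 ratio 0.53, adjusted p = 1), and Mir152 and Mir148b passed under none. That test called 4 genes in place of 172. Without the filter 180 of 561 genes were called. Of the called genes, 47.1% were higher in replicate 1, and 54.1% with scaling by total reads. Mean CPM depends on the total. Without regard to strand it was 300.3 for Mir148a, 218 for Mir152 and 91.1 for Mir148b. With multiply matched reads in the total it was 35.9, 25.8 and 10.9. Without the most abundant gene, Mir378a, it was 181 for Mir152 and 75.3 for Mir148b. With 1 library left out, the log2 ratio of Mir148a to Mir152 was 0.05 or 0.80. The 0.5 pseudocount changed no value beyond the SD. Depth limits Mir148b most, with 114 reads in each library. No paired analysis was possible because the design holds 1 group.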
